A study of Mus musculus with 20 samples.

Results

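Wt1, Wt1os, Lmx1b, Tcf21, Foxc2, Dach1 and Cdkn1c are 7 of the 34255 genes in a count table of mouse kidney. They were picked by gene symbol and not by their values. Wt1, Lmx1b, Tcf21, Foxc2 and Dach1 encode transcriptional regulators of the podocyte, Wt1os is a noncoding RNA transcribed head to head with Wt1, and Cdkn1c encodes the cyclin-dependent kinase inhibitor p57. Which strand the counting used is not stated, so the counts of Wt1 and Wt1os were summed, which leaves 6 members to test. All 6 passed the filter on low counts, which a gene can pass through its counts in 1 group alone.

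The libraries hold 3′ mRNA reads from kidneys of healthy, untreated, wild-type male mice of the strain C57BL6/OlaHsd. Arterioles, glomeruli, peritubular capillaries and postcapillary venules of the cortex were cut out by laser microdissection, and undissected whole kidney served as the reference, with 4 libraries in each of the 5 groups. The groups therefore differ in the tissue taken and share strain, sex and genotype. The compartments also differ in handling. By the paper, a larger area was dissected of glomeruli and of venules, and a smaller area of arterioles and of capillaries. Capillaries were cut from a lectin-stained slide, and the other compartments from a hematoxylin-stained slide. Area and stain go with the compartment, and their part in comparisons between compartments was not tested. Microdissected samples had a low-input protocol and more PCR cycles than whole kidney, and this cannot be told apart from the comparison with whole kidney. The labels call the 4 libraries of a group biological replicates but tie none of them to a named mouse. The paper describes cutting all 4 compartments from each mouse, so libraries of different groups can share a mouse. The main tests treat them as independent, and every p-value below rests on the spread among libraries. Libraries are named by the numbers 93, 96, 98 and 100 of the table, and values are listed in that order.

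Podocytes are the epithelial cells that cover the glomerular capillaries with interlocking foot processes and form part of the filtration barrier. Mature podocytes do not normally divide, and p57, which binds cyclin-CDK complexes and blocks entry into S phase, is a textbook mark of their exit from the cell cycle. WT1 is a zinc finger factor needed for kidney formation and for podocyte upkeep. LMX1B is a LIM homeodomain factor whose mutation causes nail-patella syndrome, TCF21 (also named POD1) is a basic helix-loop-helix factor, FOXC2 is a forkhead factor, and DACH1 is a cofactor of the Six-Eya-Dach network. Several of these genes are also active outside the podocyte: Tcf21 in stromal cells, Foxc2 in vessel walls and lymphatic valves, and Dach1 in tubules and in developing arteries.

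Library totals ranged from 4639090 to 12283098 counts. Microdissected libraries held 11339 to 14164 genes with at least 1 count and whole kidney libraries 18272 to 20474. The podocyte markers Nphs1, Synpo and Ddn summed to 1619 to 2616 counts per 1000000 in glomeruli and 33.8 to 45.7 in whole kidney. These are CPM, relative to the library total after TMM correction, and none of the 3 genes was at 0. Synpo was the largest part of this sum and was not particular to glomeruli. In arterioles the sum was 185 to 558 CPM, with means of 420 for Synpo, 0.656 for Nphs1 and 0.911 for Ddn. How much of the whole kidney Synpo came from podocytes was not tested. Glomerular libraries also held other cells. The sum of 6 glomerular endothelial markers stood at 4628 to 5599 CPM there against 373 to 478 in whole kidney. That of 4 mesangial markers stood at 699 to 853 against 70.7 to 83.1. In arterioles these sums were 1132 to 3622 and 493 to 1753 CPM, so neither list was particular to glomeruli. The 4 proximal tubule markers summed to 4355 to 6755 CPM in glomeruli against 31645 to 33297 in whole kidney. In these bulk samples, fewer cells of a type and less RNA per cell cannot be told apart.

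Wt1 lies on chromosome 2 at chr2:105126529-105173616 on the plus strand (GRCm38, GENCODE M21), and Wt1os at chr2:105076538-105126510 on the minus strand. Their annotated starts are separated by 18 bases and point away from each other, while the far ends of the genes, where 3′ reads are expected, lie 97.1 kb apart. The stretch between the starts is shown because it is what keeps the pair of genes from overlapping in this annotation. The sequence below is from RefSeq (GRCm38.p6, chr2:105126461-105126528, minus strand, 68 bases), with the 18 bases between the starts in capitals and the first 50 bases of Wt1os in lower case.
Wt1os start: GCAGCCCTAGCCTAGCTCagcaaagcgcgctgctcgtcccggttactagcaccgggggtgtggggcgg

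**Figure D1:**
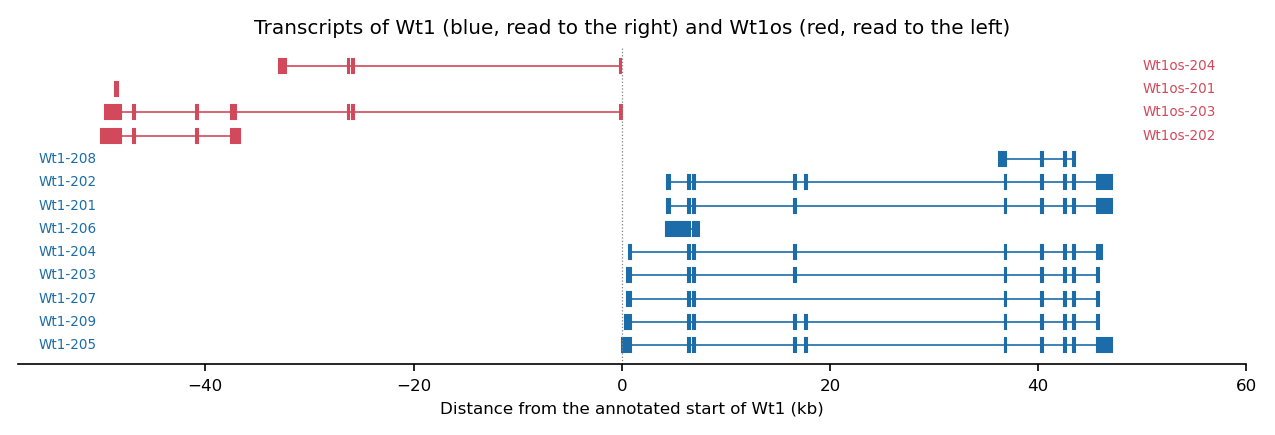
Annotated transcripts of Wt1 (blue) and Wt1os (red) by distance in kb from the annotated start of Wt1, with boxes for exons and lines for introns. The 2 genes leave from almost the same point in opposite directions and share no exon.

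Lmx1b (chr2:33560965-33640511, minus strand), Tcf21 (chr10:22817281-22820174, minus strand), Foxc2 (chr8:121116171-121118895, plus strand), Dach1 (chr14:97786853-98169765, minus strand) and Cdkn1c (chr7:143458339-143461050, minus strand) are protein-coding genes. RefSeq promoter windows, which run from 250 bases before to 50 bases after a start, matched 4 of the 7 members: Wt1os, Lmx1b, Tcf21 and Dach1. The windows were searched on both strands for letters that factors of the members' families are known to bind. The WT1 type searched was GCGTGGG, which 5.04% of all 32851 windows held. The forkhead type was GTAAACA, found in 3.65% of the windows. The LIM homeodomain type was TAATTA, found in 5.29%. The E-box, the site of basic helix-loop-helix factors, was written CANNTG and was found in 72.3%. The TATA box was TATAAA, found in 13.6%. None of these overlapped another in the members' windows. In the 4 members' windows the search found 1 E-box in Lmx1b, 74 bases before the start, and 1 in Wt1os, 117 bases before its start and thus inside the first exon of Wt1. No other match was in these windows, which says only that these letters are not there. The 250 bases before the Lmx1b start (GRCm38.p6, chr2:33641099-33641348, minus strand) are shown with the E-box in capitals, as the one match that lies upstream of a transcribed region. That RefSeq start lies 587 bases from the GENCODE start.
Lmx1b upstream: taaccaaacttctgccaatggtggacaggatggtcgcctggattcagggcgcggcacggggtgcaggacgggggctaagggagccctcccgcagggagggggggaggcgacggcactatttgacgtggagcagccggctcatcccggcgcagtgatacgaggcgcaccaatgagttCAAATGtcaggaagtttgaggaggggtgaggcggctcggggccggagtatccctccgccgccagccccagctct

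All 6 members had their highest mean level in glomeruli. Wt1 and Wt1os together, Lmx1b and Cdkn1c were higher in glomeruli than in whole kidney by edgeR's quasi-likelihood test (3 of 6 members, against 1.58% of the 13812 genes tested called higher; a call needs a Benjamini-Hochberg FDR under 0.05 and an absolute log2 fold change above 1). In the 4 glomerular libraries, each of the 6 members lay above all 4 whole kidney libraries, as did 14.6% of the genes tested. They lay above all arteriole libraries for 5 of 6 members (7.02% of genes; all but Foxc2), above all capillary libraries for 5 of 6 (8.77%; all but Dach1) and above all venule libraries for 3 of 6 (6.26%; all but Tcf21, Foxc2 and Dach1). Wt1 with Wt1os, Lmx1b and Cdkn1c lay in all 4 glomerular libraries above all 16 other libraries, as did 1.18% of the genes tested. Tcf21, Foxc2 and Dach1 overlapped with at least 1 compartment.

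**Figure D2:**
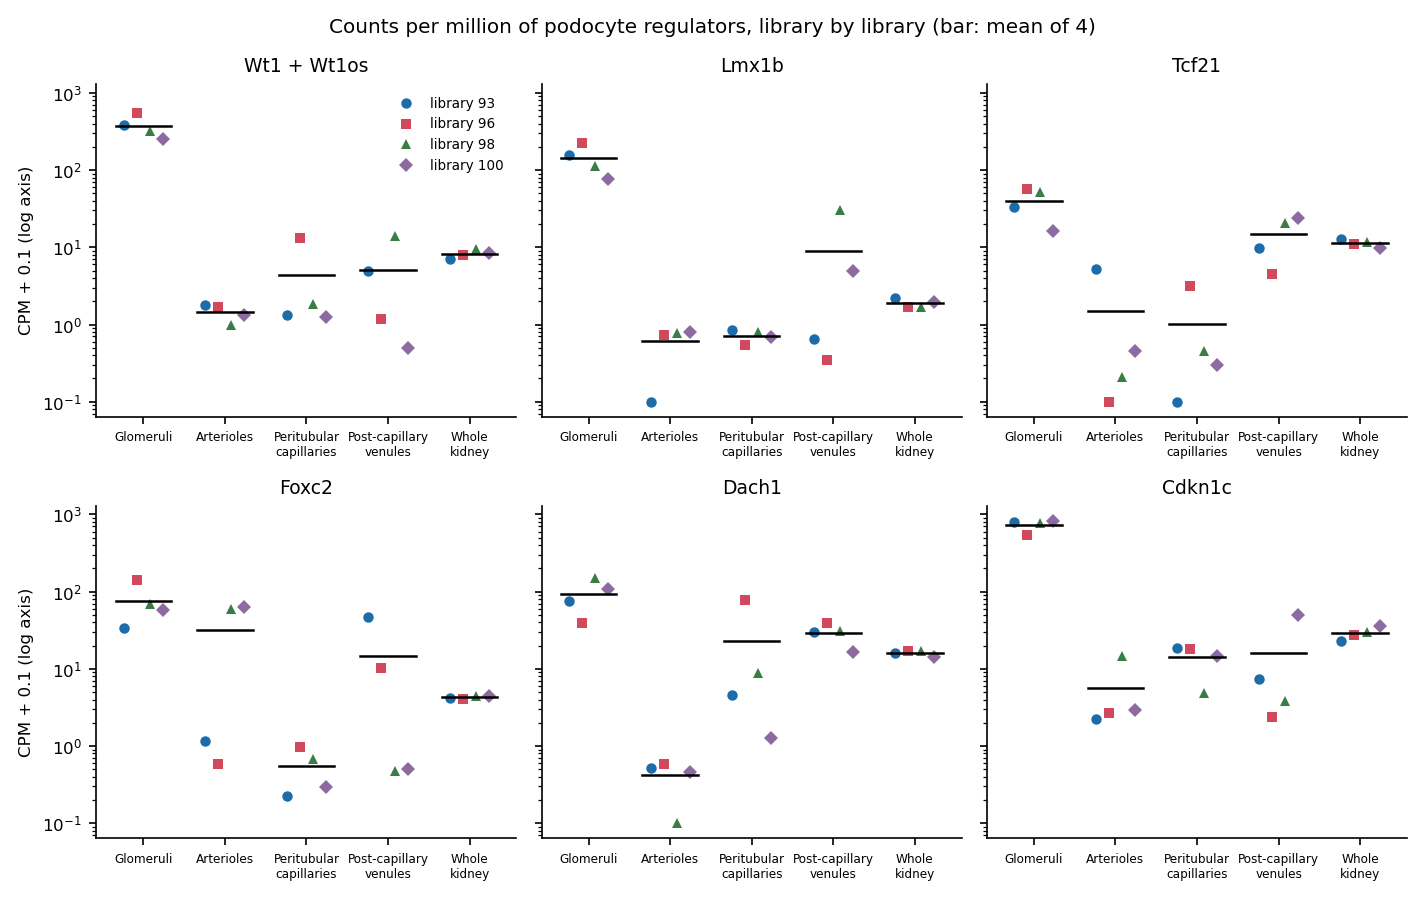
CPM of the 6 members in each of 20 libraries on a log axis (0.1 was added so that a value of 0 can be drawn); symbols mark the library number and bars the mean of 4. Wt1 with Wt1os, Lmx1b and Cdkn1c sit apart from all other groups in glomeruli, while Tcf21, Foxc2 and Dach1 reach similar levels in single libraries of other compartments.

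Wt1 and Wt1os together stood at 386, 554, 316 and 252 CPM in glomeruli. In whole kidney the values were 6.96, 7.80, 9.42 and 8.37 CPM. The groups were far apart and did not overlap. The log2 fold change was 5.53 ± 1.03 (SE; FDR 0.000768). Arterioles held 1.70, 1.60, 0.896 and 1.24 CPM. Peritubular capillaries held 1.24, 13.2, 1.74 and 1.17 CPM, with library 96 well above the other three. Postcapillary venules held 4.80, 1.09, 13.8 and 0.400 CPM, with library 98 the highest. Glomeruli were higher than arterioles (log2 fold change 8.11 ± 1.26, FDR 6.43e-05), peritubular capillaries (6.44 ± 1.17, FDR 0.000298) and postcapillary venules (6.23 ± 1.15, FDR 0.00142). After glomeruli (377 ± 130 CPM, SD, n = 4), the order of the means was whole kidney (8.14 ± 1.03), venules (5.03 ± 6.18), peritubular capillaries (4.34 ± 5.91) and arterioles (1.36 ± 0.366), and no pair of neighbours below glomeruli passed the test.

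Most of the sum was Wt1. Wt1os made up 16.4%, 18.7%, 9.89% and 25.4% of the glomerular counts (95% Clopper-Pearson intervals 15.2 to 17.6, 17.6 to 19.8, 8.99 to 10.8 and 23.6 to 27.2, which cover counting error only). In whole kidney, Wt1os took 30 of 364 counts over the 4 libraries, or 8.24% (5.63 to 11.6). The share was highest in glomerular library 100 and lowest in library 98. PCR copies are not independent molecules, so the intervals are too narrow, and the difference between libraries was not tested. As separate rows, Wt1 was higher in glomeruli than in whole kidney by 5.39 ± 1.11 on the log2 scale (FDR 0.00238), and Wt1os by 6.49 ± 1.86 (FDR 0.0419). Wt1os alone was not called against arterioles (FDR 0.0664), where it had 9 counts in all. The 8 whole kidney and arteriole libraries held at most 11 Wt1os counts each, so the depth limits what can be said of it there.

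Lmx1b stood at 157, 226, 111 and 77.2 CPM in glomeruli and at 2.12, 1.61, 1.57 and 1.88 in whole kidney. The log2 fold change of 6.30 ± 1.51 (FDR 0.0114) was called. The call ended without glomerular library 96 (FDR 0.0633) and without any one of the whole kidney libraries 93, 96, 98 and 100 (FDR 0.0581, 0.0621, 0.0616 and 0.0597), with log2 fold changes of 5.99 to 6.39 in those fits. Arterioles held 0 to 0.711 CPM and peritubular capillaries 0.440 to 0.743, at or under the level of a few counts a library. Glomeruli were higher than arterioles (8.08 ± 1.81, FDR 0.00718; 0.0504 without glomerular library 96) and peritubular capillaries (7.82 ± 1.79, FDR 0.00487). Postcapillary venules held 0.558, 0.242, 30.1 and 4.80 CPM. Venule library 98 stood apart, and against venules the log2 fold change was 4.00 ± 1.49 with an FDR of 0.217, which is no call although all 4 glomerular libraries lay above all 4 venule libraries. In that library Ddn (7.38 CPM against 0.363 to 1.896) and Ptpro, a podocyte receptor phosphatase (18.4 against 0.558 to 2.27), were also above the other venule libraries. Nphs1, however, was at 0.184 CPM. The sum of the podocyte structural genes was the lowest of the venule libraries (935 CPM against 1017 to 1216), but it includes broadly expressed genes such as Actn4. The part of podocyte genes in the Lmx1b value was not tested. Mean levels ran from glomeruli (143 ± 64.1 CPM) through venules (8.92 ± 14.3), whole kidney (1.79 ± 0.257) and peritubular capillaries (0.616 ± 0.135) to arterioles (0.506 ± 0.339), and no neighbours in this order passed the test.

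Tcf21 stood at 32.8, 57.7, 52.5 and 16.1 CPM in glomeruli and at 12.7, 10.8, 11.7 and 9.69 in whole kidney. The groups did not overlap, but library 100 was close to whole kidney, and the log2 fold change of 1.82 ± 1.61 was not called (FDR 0.752). Postcapillary venules held 9.59, 4.36, 20.7 and 23.6 CPM and overlapped with glomeruli (log2 fold change 1.44 ± 1.84, FDR 0.984). Arterioles held 5.10, 0, 0.112 and 0.355 CPM. Peritubular capillaries held 0, 3.08, 0.348 and 0.195 CPM. All 4 glomerular libraries thus lay above these 8, with log2 fold changes of 4.83 ± 2.12 (FDR 0.203) and 5.43 ± 2.18 (FDR 0.153). The order of the means was glomeruli (39.8 ± 19.04), venules (14.6 ± 9.09), whole kidney (11.2 ± 1.29), arterioles (1.39 ± 2.47) and peritubular capillaries (0.906 ± 1.46), and no pair of groups passed the test. An annotated antisense gene, Gm10824, covers the 3′ end of Tcf21 without sharing an exon, and had 115 counts over the 20 libraries.

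Foxc2 stood at 33.9, 140, 69.4 and 58.3 CPM in glomeruli and at 4.13, 4.02, 4.30 and 4.33 in whole kidney. The glomerular libraries scattered widely and whole kidney hardly at all, and the log2 fold change of 4.16 ± 1.58 was not called (FDR 0.153). Arterioles split: libraries 93 and 96 held 1.06 and 0.481 CPM, and libraries 98 and 100 held 60.1 and 63.5, as high as glomeruli. Postcapillary venules held 46.7, 10.05, 0.369 and 0.400 CPM, high in library 93. Peritubular capillaries held only 0.124, 0.880, 0.580 and 0.195 CPM, below every whole kidney library, as did 18.3% of the genes tested. Foxc2 was higher in glomeruli than in peritubular capillaries (7.35 ± 2.03, FDR 0.0264). That call ended without glomerular library 96 (FDR 0.0872) or any one of the capillary libraries 93, 96, 98 and 100 (FDR 0.0833, 0.0559, 0.0726 and 0.0847). Against arterioles the log2 fold change was 1.27 ± 1.55 (FDR 0.740) and against venules 2.38 ± 1.61 (FDR 0.729). Arterioles were higher than peritubular capillaries (6.08 ± 1.92, FDR 0.0347; 1 of 6 members, against 6.22% of 12178 genes called higher). Without arteriole library 98 or 100 the FDR was 0.0574 or 0.0549, and without capillary library 93, 96, 98 or 100 it was 0.0843, 0.0590, 0.0708 or 0.0812. The call also ended with the library number as a block (FDR 0.0593), and Foxc2 did not pass the filter with only the 8 libraries compared. The order of the means was glomeruli (75.4 ± 45.5), arterioles (31.3 ± 35.3), venules (14.4 ± 22.0), whole kidney (4.19 ± 0.147) and peritubular capillaries (0.445 ± 0.353), and no neighbours passed the test. Lymphatic endothelial markers summed to 454, 10.9, 89.4 and 18.8 CPM in the arterioles, and their part in the Foxc2 values was not tested.

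Dach1 stood at 75.6, 38.8, 151 and 110 CPM in glomeruli and at 16.1, 17.0, 16.7 and 13.9 in whole kidney. The log2 fold change of 2.56 ± 1.23 was not called (FDR 0.309), although no library overlapped. Postcapillary venules held 29.7, 39.1, 30.4 and 16.5 CPM, and the highest of them just passed the lowest glomerular library. Peritubular capillaries held 4.46, 77.9, 8.71 and 1.17 CPM, so that library 96 alone reached the glomerular range. Against venules and capillaries the log2 fold changes were 1.69 ± 1.36 (FDR 0.864) and 2.02 ± 1.37 (FDR 0.517). Arterioles held next to none: 0.425, 0.481, 0 and 0.355 CPM, which is 7 counts in 4 libraries. They were below whole kidney (log2 fold change -5.64 ± 1.45, FDR 0.00954), and Dach1 and Cdkn1c were the members called lower there (2 of 6, against 5.5% of the genes tested). Arterioles were also below peritubular capillaries (-6.16 ± 1.68, FDR 0.0134; 1 of 6 members, 4.95% of genes called lower) and venules (-6.49 ± 1.71, FDR 0.0206; 1 of 6 members, 1.86% of genes). The call against capillaries ended without capillary library 96 (log2 fold change -3.89, FDR 0.109) and with the library number as a block (FDR 0.0580), and Dach1 did not pass the filter with only the arteriole and capillary libraries. The newer form of edgeR's test made none of these calls for arterioles (FDR 0.0661 against whole kidney, 0.0721 against capillaries and 0.06698 against venules), and the call against venules also ended with only the arteriole and venule libraries (FDR 0.105). Glomeruli were higher than arterioles by 8.18 ± 1.83 (FDR 0.00717). The order of the means was glomeruli (93.8 ± 47.9), venules (28.9 ± 9.30), peritubular capillaries (23.1 ± 36.7), whole kidney (15.9 ± 1.39) and arterioles (0.315 ± 0.216), where only the last step passed the test.

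Cdkn1c stood at 798, 540, 780 and 819 CPM in glomeruli and at 23.0, 27.1, 30.3 and 36.1 in whole kidney. Its glomerular libraries varied least of the 6 members relative to their mean (734 ± 130 CPM, SD, n = 4). The log2 fold change was 4.66 ± 0.82 (FDR 0.000379). The lowest glomerular library, at 540 CPM, stood above the highest whole kidney library, at 36.1 CPM. Arterioles held 2.12, 2.57, 14.4 and 2.84 CPM. Peritubular capillaries held 18.3, 18.04, 4.76 and 14.6 CPM. Postcapillary venules held 7.36, 2.30, 3.69 and 49.6 CPM, and library 100 stood above every whole kidney library. Glomeruli were higher than arterioles (7.05 ± 0.98, FDR 8.38e-06), peritubular capillaries (5.72 ± 0.92, FDR 5.99e-05) and venules (5.54 ± 0.91, FDR 0.000265). Arterioles were below whole kidney (-2.39 ± 0.75, FDR 0.0342), but this call was lost without arteriole library 93, 96 or 100 (FDR 0.0732, 0.0759 and 0.0683) and without whole kidney library 93, 96, 98 or 100 (FDR 0.0561, 0.0612, 0.0684 and 0.0756), with the newer form of edgeR's test (FDR 0.0595) and with only the 8 libraries compared (FDR 0.180). The order of the means was glomeruli, whole kidney (29.1 ± 5.54), venules (15.7 ± 22.7), peritubular capillaries (13.9 ± 6.34) and arterioles (5.49 ± 5.97), and below glomeruli no neighbours passed the test.

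**Figure D3:**
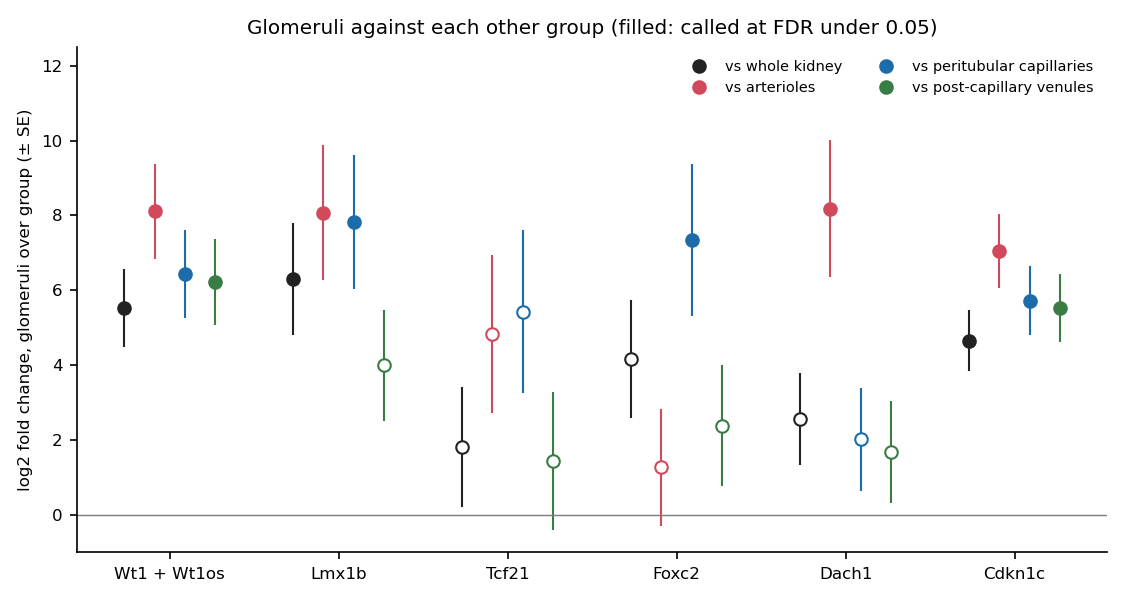
Log2 fold change of each member in glomeruli over whole kidney and over each other compartment, with SE bars; filled points were called at FDR under 0.05 and an absolute log2 fold change above 1. Wt1 with Wt1os and Cdkn1c are filled in all 4 comparisons, and Tcf21 in none.

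Set against the mean of the other 3 compartments, glomeruli were higher for 4 of 6 members (2.44% of 12178 genes were called higher). These were Wt1 with Wt1os (log2 fold change 6.92 ± 0.74, FDR 2.38e-08), Lmx1b (6.63 ± 1.05, FDR 6.98e-05), Cdkn1c (6.10 ± 0.59, FDR 2.10e-09) and Dach1 (3.96 ± 0.99, FDR 0.0143). The Dach1 call ended without glomerular library 98 (FDR 0.0837) or 100 (FDR 0.0542). Foxc2 gave 3.67 ± 1.14 (FDR 0.0628), which fell to 0.0481, 0.0499 and 0.0296 without arteriole library 96, arteriole library 100 or venule library 93. Tcf21 gave 3.904 ± 1.34 (FDR 0.104), which fell to 0.0260 and 0.0493 without arteriole library 93 or capillary library 96. By pair, 4 of 6 members were higher in glomeruli than in arterioles (0.862% of genes), 4 of 6 than in peritubular capillaries (2.19%) and 2 of 6 than in venules (0.484%). Lmx1b passed the filter for comparisons between compartments through its glomerular counts, so its calls there are not independent of that filter. Outside glomeruli it had 163 and 36 counts in venule libraries 98 and 100 and at most 6 in any other microdissected library. The newer form of edgeR's test and DESeq2 each called all 6 members higher than the other compartments (4.1% and 2.97% of genes). edgeR called 0 members between peritubular capillaries and whole kidney (0.0869% of genes higher, 0.00724% lower), 0 between venules and whole kidney (0.203% higher, 0.0217% lower) and 0 between capillaries and venules (0.0739% higher, 0.312% lower). At an unadjusted p under 0.05 these comparisons had 2, 0 and 2 members, all lower. Over all genes, 1717 of 13812, 1293 of 13812 and 1370 of 12178 had such a p, in either direction. DESeq2 called 0, 0 and 2 members, the 2 lower. It called 1.8%, 0.789% and 3.5% of genes lower and 0.253%, 0.478% and 1.35% higher. The newer form of edgeR's test called 0 members in each, and at most 0.333% of genes in a direction. The comparisons with whole kidney share its 4 libraries, and those between compartments share libraries wherever they have a compartment in common.

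The fit of all 20 libraries uses 1 estimate of spread per gene, to which the scattered compartments contribute. Fitted on the 8 glomerular and whole kidney libraries alone, all 6 members were called higher, with FDRs of 0.000246 for Foxc2, 0.00172 for Dach1 and 0.0294 for Tcf21, but so were 11.6% of the 13040 genes tested. With the newer form of edgeR's test on all 20 libraries, 5 of 6 were called (all but Tcf21), against 5.0% of genes, and DESeq2 called 4 of 6, against 3.11%.

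Counting each member against structural podocyte genes asks whether it was as concentrated in glomeruli as they were. The yardstick was the summed counts of Nphs1 (a slit diaphragm protein), Synpo (an actin-binding protein of foot processes) and Ddn (dendrin). It held 14707 to 23816 counts in a glomerular library and 295 to 644 in a whole kidney library. Glomerular library 100 had the highest sum (2616 CPM against 1619 to 1740 in the other glomerular libraries). Nphs1 stood at 735 CPM there against 113 to 162, which lowers the ratio of every member in that library. Because the yardstick genes are among the most glomerular of all, 97.1% of the genes tested had a lower ratio to it in all 4 glomerular libraries than in all 4 whole kidney libraries, and a member that did so is no exception. Wt1 with Wt1os amounted to 222, 342, 184 and 96.5 counts per 1000 yardstick counts in glomeruli and to 152, 231, 214 and 225 in whole kidney. These ranges overlapped, and the mean log2 ratio differed by -0.089 between glomeruli and whole kidney (exact two-sided permutation test, p = 0.8, n = 4 each). Lmx1b amounted to 90.1, 139, 64.7 and 29.5 against 46.4, 47.5, 35.7 and 50.6, which also overlapped, with a log2 difference of 0.61 (exact p = 0.229).

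The other members had a lower ratio in every glomerular library, without overlap (exact p = 0.0286 for each, the smallest that 4 against 4 libraries allow, among 6 members tested). For Foxc2 and Cdkn1c the absence of overlap rests on this choice of 3 genes: with the yardstick as first planned, which held further genes, their ratios overlapped. For Tcf21 the counts per 1000 yardstick counts were 18.9, 35.6, 30.5 and 6.17 in glomeruli and 278, 319, 267 and 261 in whole kidney, a log2 difference of -3.895. For Dach1 they were 43.5, 24.002, 87.9 and 41.9 against 353, 502, 380 and 375, a log2 difference of -3.17. Both were far below the yardstick. Foxc2 amounted to 19.5, 86.5, 40.4 and 22.3 against 90.5, 119, 97.8 and 116 (log2 difference -1.597), and glomerular library 96 came close to whole kidney. Cdkn1c amounted to 459, 334, 454 and 313 against 503, 800, 689 and 972, a log2 difference of -0.91. Against the longer list of 19 podocyte structural genes, which includes broadly expressed ones such as Actn4, the Tcf21 difference was -1.58 (exact p = 0.0286) and the Dach1 difference -0.86 (exact p = 0.114). With that list the sign turned for Cdkn1c (1.41, exact p = 0.0286), Foxc2 (0.72, exact p = 0.143) and Wt1 with Wt1os (2.23, exact p = 0.0286), so that for these the direction depends on the genes chosen as the yardstick.

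**Figure D4:**
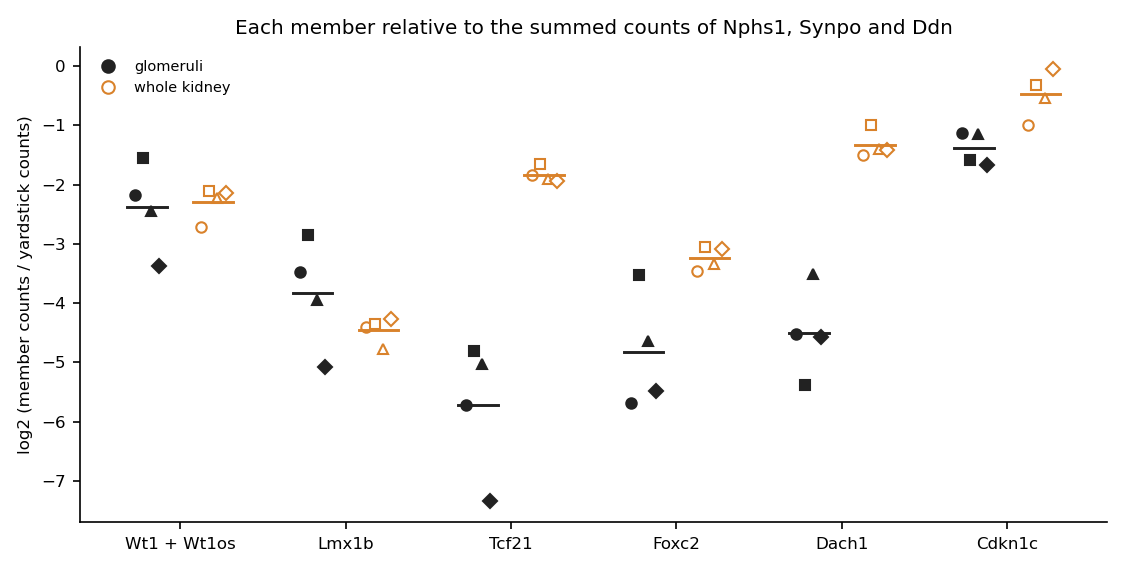
Log2 ratio of each member's counts to the summed counts of Nphs1, Synpo and Ddn (0.5 added to both) in 4 glomerular and 4 whole kidney libraries, with bars for the means and symbols for the library numbers as in the plot of CPM by library. Tcf21 and Dach1 lie far lower in all glomerular libraries, Foxc2 and Cdkn1c lie lower by less (they overlapped with the yardstick as first planned), and Wt1 with Wt1os and Lmx1b overlap between the groups.

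Of the other podocyte genes, 10 of the 18 structural genes tested were higher in glomeruli than in whole kidney and none was lower (median log2 fold change 3.82, against 0.25 over all genes tested). Over all 13812 genes tested, 1.58% were called higher and 1.47% lower, the shares to set beside each list below. Podxl, the sialomucin of the podocyte surface that endothelium also makes, rose by 5.34 ± 0.38 (FDR 1.41e-12). Synpo rose by 5.43 ± 0.53 (FDR 6.36e-09), Ddn by 6.06 ± 1.06 (FDR 0.000356) and Rhpn1, which encodes rhophilin, by 4.896 ± 0.94 (FDR 0.00109). Of 13 further podocyte transcription factors and their partners, 1 was higher and none lower (median 0.94). Foxc1, the paralog of Foxc2, stood at 203, 219, 213 and 220 CPM against 15.02 to 20.1 (3.58 ± 0.79, FDR 0.00569). In arterioles Foxc1 stood at 444, 462, 40.9 and 111 CPM, above every glomerular library in libraries 93 and 96, where Foxc2 was low, and below every one in libraries 98 and 100. Wtip, the WT1-interacting protein, gave 1.60 ± 0.63 (FDR 0.170) and was at 452 to 1562 CPM in arterioles. Tcf4, an E-protein that pairs with basic helix-loop-helix factors, gave 1.44 ± 0.57 (FDR 0.173). Against the other compartments edgeR called 0 of the 13 (3 at an unadjusted p under 0.05, 2 higher and 1 lower; 2 higher by the newer form of its test and 0 by DESeq2).

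None of the 9 tested genes of the nephron progenitor and Six-Eya-Dach list was called in glomeruli against whole kidney (edgeR; 2 at an unadjusted p under 0.05, both lower; DESeq2 0; median log2 fold change -1.18). Osr1, an early kidney mesenchyme factor, had 0 counts in glomeruli and 2.08 ± 0.844 CPM in whole kidney, and was not called (FDR 0.135). With 3 counts a library taken as the floor (0.298 CPM), its mean was at least 6.996-fold lower in glomeruli. That floor does not cover RNA missed in a low-input library. Lhx1, a LIM homeodomain relative of Lmx1b, gave -3.38 ± 1.57 (FDR 0.287). Pax8, a tubule and parietal epithelial factor, gave -1.71 ± 1.28 (FDR 0.665), and Six5 gave 2.25 ± 1.74 (FDR 0.683).

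Cdkn1c was the one inhibitor of cyclin-dependent kinases called in glomeruli. Of the 8 other CDK inhibitors and pocket proteins tested, edgeR called 0 against whole kidney, with 0 at an unadjusted p under 0.05, 0 by DESeq2 and 1 higher with only the 8 libraries (median log2 fold change 0.07). Cdkn1a (p21) stood at 41.1 ± 7.49 CPM in glomeruli and 13.5 ± 3.25 in whole kidney (1.61 ± 0.94, FDR 0.476), and at 194 ± 100.2 in arterioles. Cdkn1b (p27) stood at 67.5 ± 25.1 against 34.7 ± 9.39 CPM (0.96 ± 0.91, FDR 0.783). Cdkn2c gave -1.15 ± 1.64 (FDR 0.892) and Cdkn2d 1.07 ± 1.64 (FDR 0.904). Whether the change of Cdkn1c differed from those of its relatives was not tested.

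Of 15 cyclins, CDKs and proliferation genes tested, 1 was higher in glomeruli than in whole kidney and none lower (median log2 fold change 0.82). Over all genes tested, 1.58% were called higher and 1.47% lower. Ccnd2, a D-type cyclin, stood at 313, 301, 329 and 341 CPM against 54.4 to 82.4 (2.15 ± 0.42, FDR 0.00112), and was higher still in arterioles (1040 to 2892 CPM). E2f1, a transcription factor of S-phase genes, stood at 77.0, 77.3, 73.8 and 96.1 CPM in glomeruli and at 2.72, 6.65, 3.96 and 4.23 in whole kidney. Its log2 fold change of 4.20 ± 1.73 was not called (FDR 0.204), but against the other 3 compartments it was (6.43 ± 1.34, FDR 0.00228). Outside glomeruli, E2f1 reached 33.2 CPM in venule library 98, the venule library in which Lmx1b was highest, and at most 6.65 CPM elsewhere. The division markers Mki67 and Ccna2 had 0 counts in all 4 glomerular libraries, against 1.26 ± 0.842 and 1.55 ± 1.19 CPM in whole kidney. With 3 counts a library taken as the floor, these means were at least 4.24-fold and 5.19-fold lower in glomeruli, and neither was called (FDR 0.135 and 0.0967). That floor does not cover RNA missed in a low-input library. Near absence was not particular to glomeruli. Mki67 and Ccna2 averaged 0.040 and 0.093 CPM in arterioles and 0 and 0.029 in peritubular capillaries, but 9.11 ± 16.4 and 6.80 ± 9.74 in venules.

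**Figure D5:**
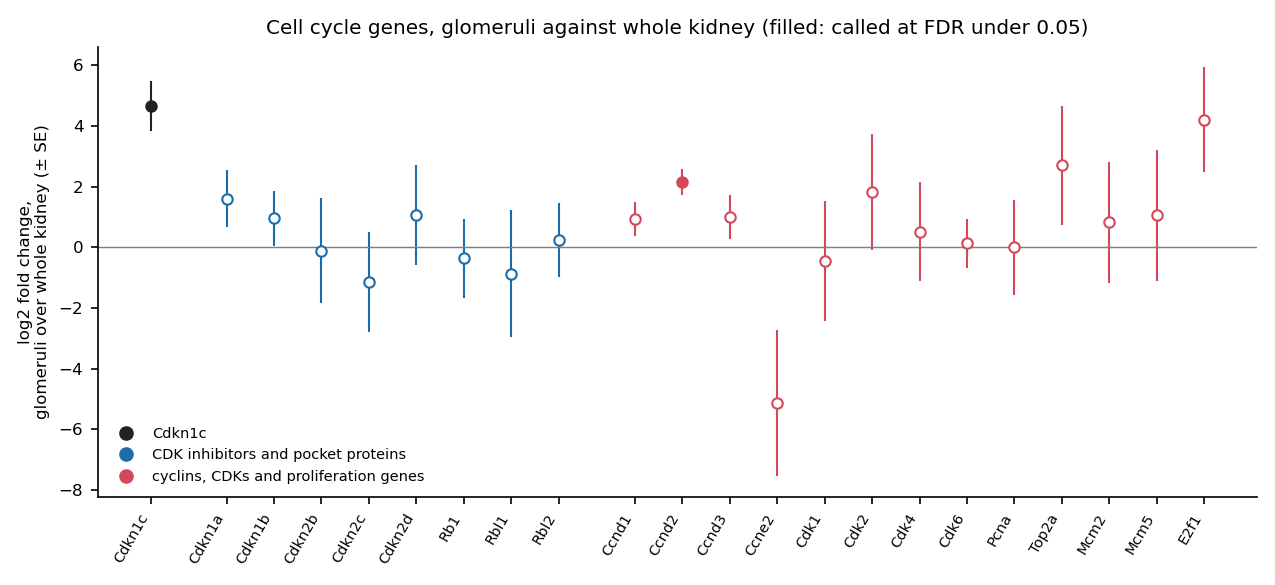
Log2 fold change in glomeruli over whole kidney with SE bars for Cdkn1c, other CDK inhibitors and pocket proteins, and cyclins, CDKs and proliferation genes; filled points were called. Genes at 0 counts in all 4 glomerular libraries, Mki67 and Ccna2 among them, are left out. Cdkn1c and Ccnd2 are the filled points, and E2f1 has a large but uncertain value.

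Cdkn1c lies in an imprinted cluster on chromosome 7, in which Kcnq1ot1 is a noncoding RNA that silences neighbours on the paternal copy. Of 8 tested neighbours, 1 was higher in glomeruli than in whole kidney and 1 lower (median log2 fold change 1.201). Over all genes tested, 1.58% were called higher and 1.47% lower. Cd81, a tetraspanin, rose by 1.45 ± 0.36 (FDR 0.0154). Slc22a18, a transporter, was lower by -2.12 ± 0.52 (FDR 0.0129), standing at 182, 96.3, 93.4 and 47.0 CPM against 392 to 494. Kcnq1ot1 gave 2.39 ± 0.73 (FDR 0.0630) and Kcnq1, a potassium channel gene, -6.45 ± 2.15 (FDR 0.0907). Kcnq1ot1 is transcribed antisense within Kcnq1, and as the counted strand is not stated, reads from the stretch they share could have been counted to either row.

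Over the 20 libraries, the genes most like each member in log2(CPM + 1) were found among 12371 genes by Pearson's r, as a description over libraries that share groups and depth. Wt1 with Wt1os was most like Ddn (r = 0.964), Ephb1 (0.956) and Clic3 (0.951). Lmx1b was most like Ptpro, a podocyte receptor phosphatase (0.963), then Ddn (0.947) and E2f1 (0.934). Cdkn1c was most like Msmp (0.945), Pag1 (0.944) and Rhpn1 (0.937). For the other members the closest gene was less close: Tcf21 and Arhgef6 at 0.896, Foxc2 and Fam189b at 0.895, and Dach1 and Pak1 at 0.889. Among the members themselves, Wt1 with Wt1os and Lmx1b had the highest r (0.91), and Foxc2 and Dach1 the lowest (0.29).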

How the data were processed

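The authors' reads were trimmed (bbduk), mapped to GRCm38.p6 (STAR 2.7) and counted per gene (HTSeq 0.13); the labels also list featureCounts and GRCm39, in no stated role. They deposited raw counts in 1 table of 34255 genes and 168 sample columns, of which 20 belong to the samples used here and 148 were not used. The treatment of PCR copies and the counted strand are not stated in the sources. Columns were mapped to groups by the table's header lines, and a library number names a column, not a labelled replicate. No libraries were identical, and of the gene identifiers 34185 matched GENCODE M21.

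Counts were tested in R 4.3.3 with edgeR 4.0.16 (TMM, filterByExpr by group, quasi-likelihood test as in version 3, legacy setting). Comparisons with whole kidney used all 20 libraries (13812 genes), those between compartments the 16 microdissected ones (12178 genes). FDR is the adjusted p of Benjamini and Hochberg over every gene of the fit, and an SE is the log2 fold change divided by the root of F. The yardstick ratios used 0.5 as pseudocount and an exact permutation test (scipy 1.17.1), without adjustment over the members. DESeq2 1.42.0 and other settings were alternatives. The scripts were tested on simulated data. Of the podocyte genes listed, 2 are not reported here and were left out of the lists and the yardstick after the data had been seen; with the yardstick as first planned, the Foxc2 and Cdkn1c ratios overlapped between glomeruli and whole kidney. The members and lists were chosen with earlier results of these data known. All members were named, with at most 4 genes per list by smallest p, up to 2 against the list's median, and the 3 genes most like each member; predicted genes were passed over there. Tcf21, Foxc2 and Dach1 have only their closest gene named. Mean CPM of further groups and genes of single libraries were added after their values were seen.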

Additional observations from a re-analysis of the deposited data

Results flagged for a closer look

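In groups of 4, a library was looked at again where its gap to the next one, as a share of the group's range, exceeded Dixon's 95% critical value. This happened in 9 of 30 groups (6 members in 5 groups). The critical value flags about 1 in 20 groups of normally distributed values, and CPM need not be so distributed. Counts near 0 make up several of the 9, so 9 of 30 cannot be set against that rate.

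Of the 9, 3 came from peritubular capillary library 96, the highest of its group for Wt1 with Wt1os (13.2 CPM against 1.17 to 1.74), Tcf21 (3.08 against 0 to 0.348) and Dach1 (77.9 against 1.17 to 8.71). Its column name has extra letters that no source explains. Its podocyte yardstick sum was 49.6 CPM, within the 28.2 to 95.3 of the group, and its proximal tubule sum 65579 CPM, within 58936 to 110079. Synpo alone made up 48.4 CPM of that yardstick sum, with Nphs1 at 0.733 and Ddn at 0.440 CPM. In venule library 98, Lmx1b stood at 30.1 CPM against 0.242 to 4.80, and in venule library 100, Cdkn1c stood at 49.6 CPM against 2.30 to 7.36. The yardstick sums of these libraries were 91.3 and 66.7 CPM, against 97.1 and 37.9 in the other 2. Of the 91.3 and 66.7 CPM, Synpo made up 83.7 and 65.4. Synpo also stood at 184 to 555 CPM in arterioles, where Nphs1 and Ddn were at most 1.44. Outside glomeruli these sums are therefore no measure of podocytes alone. Among arterioles, Tcf21 stood at 5.10 CPM in library 93 (others 0 to 0.355), Cdkn1c at 14.4 in library 98 (others 2.12 to 2.84) and Lmx1b at 0 in library 93 (others 0.641 to 0.711). In glomeruli, Cdkn1c was lowest in library 96, at 540 CPM against 780 to 819, the library with the highest Wt1, Lmx1b, Tcf21 and Foxc2.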

How the results depend on the processing

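The fold changes of the 6 members in the 5 comparisons of glomeruli kept their direction in all 517 alternative values. In 479 they also kept their side of the threshold, in 13 a call was lost and in 25 one was gained. Among the members called against whole kidney, 3 became 5 with the newer form of edgeR's test and 6 with only the 8 libraries compared. The 2 members lower in arterioles than in whole kidney became 0 with the newer form. Against peritubular capillaries, the 1 member higher in arterioles became 0 with the replicate block and with only the 8 libraries compared, and the 1 lower became 0 with these and with the newer form; with only 8 libraries neither gene passed the filter. Against venules, the 1 lower in arterioles became 0 with the newer form and with only the 8 libraries compared, and 2 with DESeq2 (Lmx1b, FDR 0.00794). The cause was not tested. Leaving out 1 library gave 1 to 2 members lower in arterioles than in whole kidney, 0 to 1 higher and 0 to 1 lower than in capillaries, 2 to 3 higher in glomeruli than in whole kidney, and 3 to 5 higher in glomeruli than in the other compartments.

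Relative to the yardstick, the list of 19 structural genes gave log2 differences of 2.23 for Wt1 with Wt1os, 2.93 for Lmx1b and 1.41 for Cdkn1c (exact p = 0.0286 each), 0.72 for Foxc2 (exact p = 0.143) and -0.86 for Dach1 (exact p = 0.114). Leaving out 1 library moved Wt1 with Wt1os between -0.37 and 0.24. Leaving Synpo out of the yardstick, chosen after seeing the data, changed no call. No label ties a library number to a mouse, so the numbers were not used to pair samples. Same-numbered libraries of different groups had deviations correlated at 0.0079 on average (-0.053 to 0.071 over 40 pairs, none over 0.1), but 15 of 20 libraries correlated best with their own number, a hint that numbers may mark a shared source. In sign-flip tests within numbers, the smallest p is 0.125, so no yardstick result could pass.

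Counts over all genes moved more. Those higher in glomeruli than in whole kidney were 218 by the main test, 691 by the newer form, 429 by DESeq2 and 1507 with only 8 libraries. Those higher than the other compartments were 297, and 1428 with no filter, 560 with no scaling factor and 499 by the newer form. Over all alternatives other than leaving out 1 library, counts ranged from 91 to 931 against arterioles (main 105), 236 to 884 against capillaries (main 267) and 34 to 327 against venules (main 59). For arterioles they ranged from 400 to 2424 lower than whole kidney (main 760), 356 to 1737 higher (main 758) and 262 to 1392 lower (main 603) than capillaries, and 56 to 1116 lower than venules (main 227).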

Other observations

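A short RNA gene nested in an intron of Wt1os, Gm27538 (ENSMUSG00000099243, chr2:105122188-105122481, minus strand, the same strand as Wt1os), was singled out after its values were seen. It had 723 and 424 counts in glomerular libraries 98 and 100 (56.1 and 46.6 CPM) and 0 in glomerular libraries 93 and 96, and 7 counts in the 16 other libraries together. Libraries 93 and 96 held 633 and 942 counts of Wt1os itself. Gm10824, the antisense neighbour of Tcf21, likewise had 93 and 12 counts in glomerular libraries 98 and 100 and 0 in 93 and 96, and 10 counts in whole kidney.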
